A study of Mus musculus with 15 samples.

Results

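The subcortical maternal complex is a protein assembly beneath the cortex of mammalian oocytes and early embryos. Transcripts of 6 of its genes (Nlrp5, Ooep, Tle6, Padi6, Khdc3 and Nlrp2) were followed in mouse zygotes and 2-cell embryos, with and without maternal Usp16. The genes were chosen by name and not by their values. Of the 14392 genes in the deposited table, 5 carried these symbols, and Khdc3 was listed as 2410004A20Rik, which RefSeq gives as its older symbol, so that all 6 were found. Together they held 0.266% ± 0.0198 of the summed expression in WT zygotes and 0.0518% ± 0.0012 in WT 2-cell embryos (SD, n = 2 libraries each). In embryos of Usp16-deleted mothers these shares were 0.297% ± 0.053 and 0.0254% ± 0.00212 (SD, n = 2 libraries each).

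Growing oocytes transcribe these genes, assemble the proteins into the complex and store it for the embryo. In the cleavage embryo the complex lies in the outer cytoplasm, and mouse embryos whose mothers lack a core component arrest during early cleavage. The transcripts belong to the maternal RNA that is cleared after fertilization, whereas the proteins outlast them. The measurements described here are of RNA only.

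The RNA-seq libraries covered 4 groups of embryos, WT and cKO at the zygote and at the 2-cell stage. Each group had 2 libraries, and each library was made by Smart-seq2 from 10 pooled embryos. WT embryos were wild type at Usp16, which encodes a deubiquitinase of histone H2A. The cKO embryos, labelled Usp16KO, came from Usp16 fl/fl;Gdf9-Cre mothers mated to WT males. The study describes embryos of this cross as having a deleted maternal and an intact paternal allele. Gdf9-Cre is active in oocytes from early follicles onward, so Usp16 was already missing while the oocytes grew. The mice were on a C57BL/6 background. Nothing in the labels says that replicates came from separate mothers, so p-values measure the spread between libraries, which may be technical. In pooled whole embryos, less RNA in every embryo and loss of RNA from only some of the embryos cannot be told apart.

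Expression was given as FPKM, the number of sequenced fragments divided by transcript length and by the size of the library. All values under 1 had been set to 1. Read counts are not part of this unit, and library depth is therefore unknown. The cKO 2-cell libraries stood apart from the others in their spread. In that group 1912 genes differed by more than 3-fold between the replicates, compared with 41 in WT zygotes, 20 in cKO zygotes and 199 in WT 2-cell embryos. Replicate 2 of that group also had the highest FPKM sum, 770989, against 547752 to 593317 in the other 7 libraries. For that reason both cKO 2-cell values are printed for each member and each associated protein.

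Usp16 itself was at 184 and 188 FPKM in the WT zygote libraries and at 16.8 and 22.0 in the cKO zygote libraries. At the 2-cell stage it was at 168 and 183 FPKM in WT and at 168 and 84.8 in cKO embryos. The zygote values follow the labels, with cKO at 10.4% of WT on average (log2 fold change -3.21, SE 0.34, adjusted p = 0.191 from limma). The transcript was present again in both cKO 2-cell libraries, and FPKM does not separate the paternal from the maternal allele. An exon of Usp16 also overlaps Cct8 on the opposite strand, and without strand the reads of the shared part cannot be told apart. Cct8 was at 188 to 210.1 FPKM in zygotes, 118 and 157 in WT 2-cell embryos and 338 and 158 in cKO 2-cell embryos, so that cKO 2-cell replicate 1 was highest. Among markers of the labelled cells, all 6 oocyte genes listed (Zp3, Gdf9, Bmp15, Mos, Ddx4 and Zar1) were above the floor in every library. Their summed FPKM was 2700 to 3297 in the zygotes, 916.0 and 983 in WT 2-cell embryos and 507 and 640.1 in cKO 2-cell embryos. The 6 did not move one way between the genotypes at the 2-cell stage, where 3 had a negative log2 fold change and the median was 0.15. Bmp15 was at 531 and 536 FPKM in WT and 79.6 and 67.5 in cKO 2-cell embryos, while Gdf9 was at 195 and 304 in WT and 266 and 367 in cKO 2-cell embryos. Of 14 cumulus and granulosa cell markers 3 were in the table, and their summed FPKM was 24.3 to 28.7 in the zygotes and 3.0 to 10.3 in the 2-cell libraries. Cyp19a1 made up nearly all of it in zygotes, at 22.3 to 26.7 FPKM, while Foxl2 and Tnfaip6 were at the floor there. Of 6 sperm markers 4 were in the table, with Prm2 at 13.5 to 20.1 FPKM in zygotes as the most abundant. The part of these other cells in the results was not tested.

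Of the core members, Nlrp5 encodes MATER, a protein with leucine-rich repeats, and lies on chromosome 7 of mm9 from 24170908 to 24226941, with 18 exons in its longest annotated transcript. It was at 210.1 and 250.4 FPKM in WT zygotes, 186 and 205 in cKO zygotes, 61.1 and 58.8 in WT 2-cell embryos and 18.5 and 30.1 in cKO 2-cell embryos. The 4 groups did not overlap, and the cKO 2-cell libraries were the lowest. Ooep encodes FLOPED, a small protein with an atypical KH domain, on chromosome 9 from 78223916 to 78226532 in 3 exons. Its FPKM was 681 and 599.9 in WT zygotes, 1282 and 890.1 in cKO zygotes, 43.4 and 35.7 in WT 2-cell embryos and 33.7 and 69.7 in cKO 2-cell embryos. It was the highest of the 6 transcripts in every zygote library, where it ranked between 56 and 140 of all listed genes, and the cKO values overlapped those of WT only at the 2-cell stage. Tle6 encodes the third core protein, a Groucho relative, on chromosome 10 from 81053649 to 81063818 in 14 exons. Tle6 was at 164 and 79.3 FPKM in WT zygotes, 92.3 and 70.8 in cKO zygotes, 72.7 and 80.4 in WT 2-cell embryos and 32.6 and 35.2 in cKO 2-cell embryos. Its WT zygote replicates differed 2.07-fold, so that WT zygotes overlapped both cKO zygotes and WT 2-cell embryos, and only the cKO 2-cell libraries lay apart from the rest.

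Of the further components, Padi6 belongs to the peptidylarginine deiminase family and is needed for the cytoplasmic lattices of the oocyte. It lies on chromosome 4 from 140283270 to 140298558 in 16 exons. Padi6 was at 546 and 435 FPKM in WT zygotes, 379.7 and 303 in cKO zygotes, 96.7 and 86.7 in WT 2-cell embryos and 57.6 and 40.3 in cKO 2-cell embryos. The 4 groups did not overlap and stood in the same order as for Nlrp5. Khdc3 encodes FILIA, a KH-domain protein linked to genome stability in cleavage embryos, on chromosome 9 from 72949643 to 72952250 in 3 exons. Khdc3 was at 23.2 and 14.0 FPKM in WT zygotes, 19.6 and 13.1 in cKO zygotes, 9.32 and 16.5 in WT 2-cell embryos and 8.17 and 5.94 in cKO 2-cell embryos. The first 3 of these groups overlapped, and the cKO 2-cell libraries were below all of them. Nlrp2, a relative of Nlrp5 on the same chromosome, extends from 5250156 to 5302637 in 12 exons. Nlrp2 was at 34.5 and 28.3 FPKM in WT zygotes, 25.3 and 27.0 in cKO zygotes, 11.4 and 10.7 in WT 2-cell embryos and 5.90 and 3.39 in cKO 2-cell embryos. Its 4 groups did not overlap either. An exon of Khdc3 overlaps Gm20509, which has no row in the table. An exon of Nlrp2 overlaps Gm5065 on the opposite strand, whose FPKM was 15.1 to 24.1 in zygotes and 1.0 to 2.87 in 2-cell embryos. Smart-seq2 does not mark strand, so reads of Nlrp2 and Gm5065 in the shared part cannot be told apart.

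**Figure D1:**
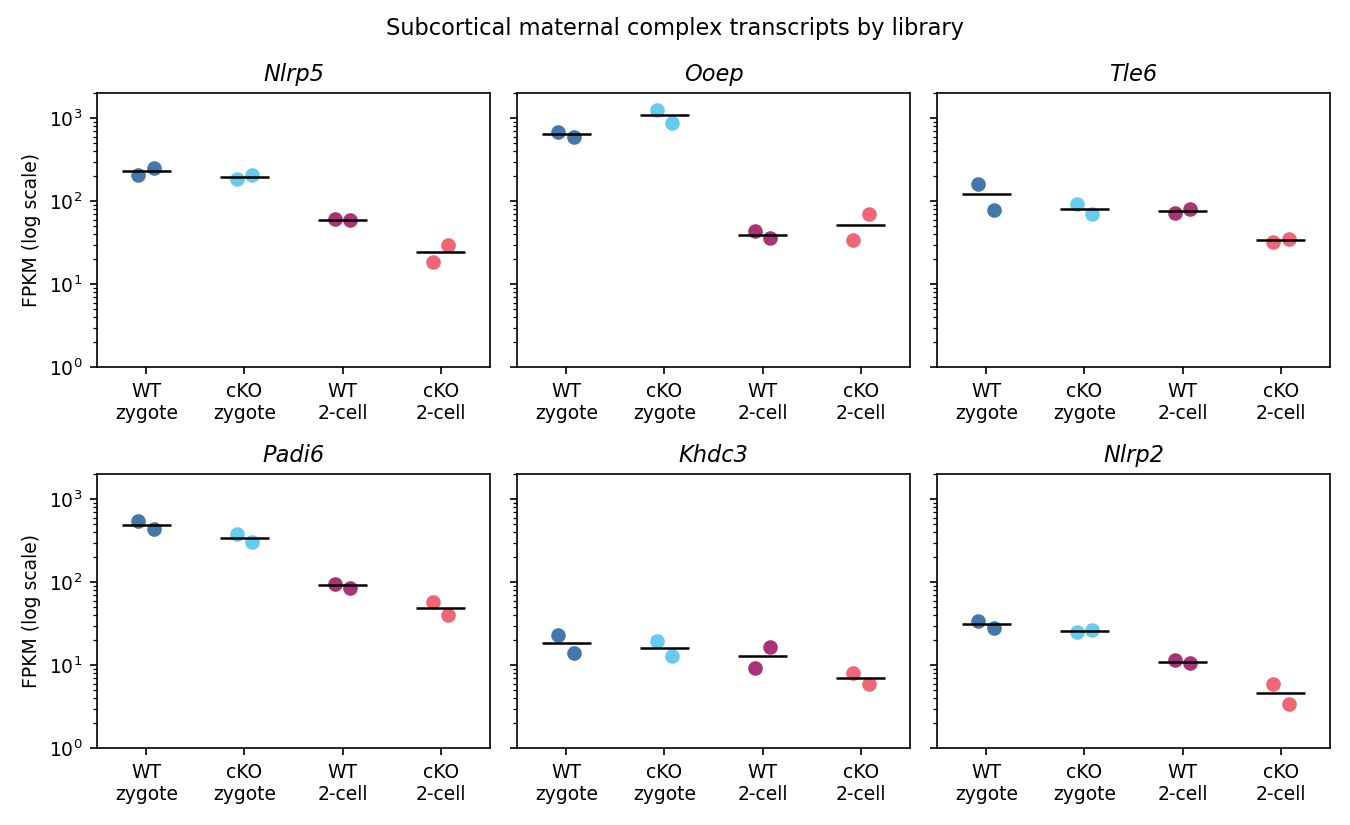
FPKM on a log axis of the 6 transcripts of the complex in WT and cKO zygotes and 2-cell embryos; each point is a library and each bar the mean of the 2 libraries of a group. Nlrp5, Padi6 and Nlrp2 step down over the 4 groups with no overlap, Ooep has the widest drop between the stages, and the cKO 2-cell libraries are the lowest for every transcript but Ooep.

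Sequences just upstream of the transcription starts are shown for the 3 members with the highest mean FPKM, Ooep, Padi6 and Nlrp5, and for Nlrp2, which held none of the motifs searched. They are the 250 bases before the start on the gene's own strand, from RefSeq on GRCm38.p6, a later build than the mm9 used for the expression values. Capitals mark the E-box CANNTG, where N is any base, the element bound by basic helix-loop-helix factors such as the oocyte factor FIGLA.
Ooep, chr9:78378589-78378838, minus strand: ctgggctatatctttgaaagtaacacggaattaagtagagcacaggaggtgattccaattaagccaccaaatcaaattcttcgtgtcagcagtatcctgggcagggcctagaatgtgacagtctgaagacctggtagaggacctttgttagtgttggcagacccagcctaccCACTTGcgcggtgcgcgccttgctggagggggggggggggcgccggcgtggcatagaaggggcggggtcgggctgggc
Padi6, chr4:140742644-140742893, minus strand: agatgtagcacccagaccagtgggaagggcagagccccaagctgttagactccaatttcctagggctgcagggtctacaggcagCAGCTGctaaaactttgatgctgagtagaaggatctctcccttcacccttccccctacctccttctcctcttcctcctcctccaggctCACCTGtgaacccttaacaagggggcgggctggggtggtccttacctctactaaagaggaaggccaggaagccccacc
Nlrp5, chr7:23385639-23385888, plus strand: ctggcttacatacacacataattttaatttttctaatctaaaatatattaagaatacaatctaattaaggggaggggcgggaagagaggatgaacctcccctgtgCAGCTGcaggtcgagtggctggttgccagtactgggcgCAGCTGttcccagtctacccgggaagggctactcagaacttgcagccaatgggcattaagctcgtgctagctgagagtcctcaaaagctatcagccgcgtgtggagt
Nlrp2, chr7:5351036-5351285, minus strand: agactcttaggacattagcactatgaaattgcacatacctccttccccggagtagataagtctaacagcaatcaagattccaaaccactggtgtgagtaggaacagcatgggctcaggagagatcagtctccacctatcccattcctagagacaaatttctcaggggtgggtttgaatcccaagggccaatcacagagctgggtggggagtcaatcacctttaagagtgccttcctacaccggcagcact
RefSeq gave 8 such windows for the 6 genes, since Nlrp5 and Tle6 each had a further start. An E-box was found in 1 place for Ooep, in 2 for Padi6, in 2 in each window of Nlrp5, in 2 and 4 in the windows of Tle6 and in 5, of which 2 overlap, for Khdc3. At least 1 was found in 7 of the 8 windows and in 66.2% of all 32851 promoter windows of this length. The NOBOX element TAATTG, searched on both strands, was found once, in Ooep, and is held by 7.17% of all windows. TATAAA, also searched on both strands, occurred in 2 places in the other window of Nlrp5 and is held by 12.4% of all windows. These matches describe letters in a window and say nothing on whether a factor binds there or on the lower levels at the 2-cell stage.

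The order of the levels changed between the stages. FPKM divides by length, so levels can be compared between genes. A limit is reads shared with overlapping genes, as for Khdc3 and Nlrp2, or with near-identical copies, as may occur in the NLRP family. In WT zygotes the means ran from Ooep at 640.5 ± 57.4 FPKM over Padi6 at 490.3 ± 78.6, Nlrp5 at 230.2 ± 28.4, Tle6 at 122 ± 60.0 and Nlrp2 at 31.4 ± 4.37 to Khdc3 at 18.6 ± 6.51 (SD, n = 2 libraries each). No neighbours in this order overlapped, and cKO zygotes had the same order, again without overlap. In WT 2-cell embryos Padi6 was highest, at 91.7 ± 7.08 FPKM, followed by Tle6 at 76.6 ± 5.39, Nlrp5 at 60.0 ± 1.63 and Ooep at 39.6 ± 5.46 (SD, n = 2 libraries each), and only the lowest pair, Khdc3 and Nlrp2, overlapped. In cKO 2-cell embryos the 2 Ooep values, 33.7 and 69.7 FPKM, spanned both Padi6 values and the higher Tle6 value, so that the place of Ooep was not resolved, while both Padi6 values lay above those of Tle6.

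Ooep contributed 41.1% and 42.6% of the summed FPKM of the 6 genes in WT zygotes and 64.6% and 59.0% in cKO zygotes. At the 2-cell stage its part was 14.7% and 12.4% in WT and 21.6% and 37.7% in cKO embryos. At either stage, each cKO library thus had a larger part from Ooep than each WT library. The ratio of Ooep to Padi6 was 1.25 and 1.38 in WT zygotes, 3.38 and 2.94 in cKO zygotes, 0.449 and 0.412 in WT 2-cell embryos and 0.586 and 1.73 in cKO 2-cell embryos. A ratio within a library does not depend on the scaling of that library, and it shows unequal levels without saying which transcript changed. The ratios are given without a test.

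**Figure D2:**
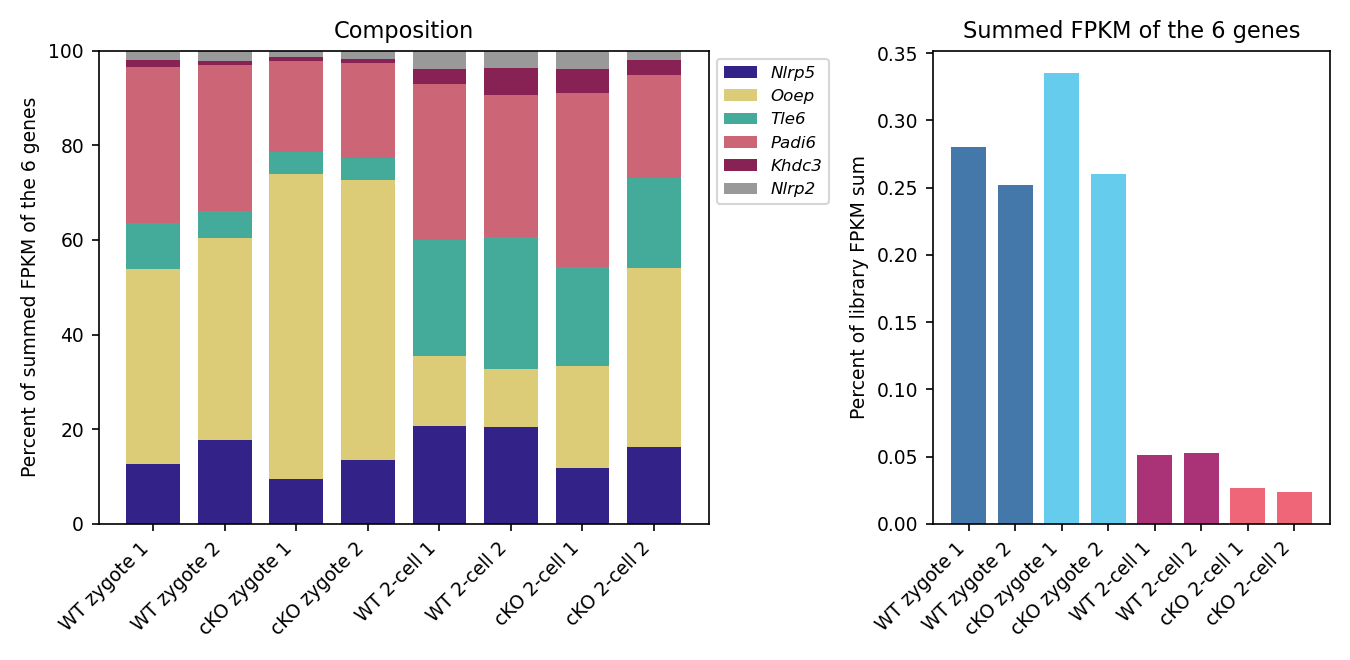
Left, the percent of the summed FPKM of the 6 genes that each contributed in the 8 libraries; right, the summed FPKM of the 6 genes as a percent of the FPKM sum of the library. Ooep fills 41.1% to 64.6% of the zygote columns and 12.4% to 37.7% of the 2-cell columns, and the total is between 0.252% and 0.335% in zygotes and between 0.0239% and 0.0527% in 2-cell embryos.

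The comparison of stages in WT embryos asks how the levels of these maternal transcripts differed between zygotes and 2-cell embryos. FPKM is relative to the whole library, so clearance of a transcript and dilution by newly made RNA cannot be told apart. Ooep fell furthest, to 6.18% of its zygote mean, followed by Padi6 to 18.7%, Nlrp5 to 26.0% and Nlrp2 to 35.2%. The means of Tle6 and Khdc3 at the 2-cell stage were 62.9% and 69.3% of those in zygotes, and their libraries overlapped between the stages. A limma model of log2(FPKM + 1) that held all 8 libraries, with p-values adjusted over all 14392 genes, called 4 of the 6 lower, against 15.5% of all genes. The log2 fold changes were -3.99 for Ooep (SE 0.38, adjusted p = 0.000431), -2.40 for Padi6 (SE 0.26, adjusted p = 0.000646), -1.92 for Nlrp5 (SE 0.26, adjusted p = 0.00159) and -1.42 for Nlrp2 (SE 0.27, adjusted p = 0.00589). For Tle6 the value was -0.57 (SE 0.35, adjusted p = 0.228) and for Khdc3 -0.50 (SE 0.39, adjusted p = 0.326). The median over the 6 genes was -1.67, compared with 0.28 over all genes. By the fold rule, which asks for means more than 3-fold apart and involves no test, 3 of the 6 were lower (Ooep, Padi6 and Nlrp5), against 8.78% of all genes. Over all genes limma called 2224 lower and 4921 higher, a split that became 3935 and 3102 after quantile normalization, which moved the median of all genes by -0.31. The calls of the 4 members were kept under every alternative setting tried. Khdc3 also passed after quantile normalization (log2 fold change -1.16, adjusted p = 0.0416 from limma), and Tle6 without replicate 2 of the WT zygotes (adjusted p = 0.0294 from limma).

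In cKO embryos the same comparison gave lower values for all 6 transcripts, and no 2-cell library of cKO embryos overlapped the zygotes for any of them. The non-overlapping order held for 35.5% of all genes in this direction. Ooep was at 4.76% of its zygote mean, Nlrp5 at 12.4%, Padi6 at 14.3%, Nlrp2 at 17.8%, Tle6 at 41.6% and Khdc3 at 43.1%. limma called 5 of the 6 lower, against 27.1% of all genes, and the fold rule 4, against 19.2%. The log2 fold changes were -4.43 for Ooep (SE 0.38, adjusted p = 0.000251), -2.99 for Nlrp5 (SE 0.26, adjusted p = 0.000263), -2.79 for Padi6 (SE 0.26, adjusted p = 0.000317) and -2.30 for Nlrp2 (SE 0.27, adjusted p = 0.000748). Tle6 passed less firmly, at -1.23 (SE 0.35, adjusted p = 0.0272), and Khdc3 did not pass, at -1.10 (SE 0.39, adjusted p = 0.0587). The median over the 6 genes was -2.55, compared with 0.00 over all genes. The Tle6 call was lost after median-ratio scaling (adjusted p = 0.0588), with a separate weight for each group (adjusted p = 0.308) and without either cKO zygote, WT 2-cell or cKO 2-cell library (adjusted p = 0.0701 to 0.151, all from limma). Khdc3 passed when genes with a mean FPKM under 5 were left out (adjusted p = 0.0324) and after quantile normalization (adjusted p = 0.0415, both from limma), which made it 6 of 6.

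In zygotes, the comparison of genotypes asks whether oocytes that grew without Usp16 handed a different store of these transcripts to the embryo. None of the 6 passed limma in either direction, against 0.0% of all genes lower and 0.0208% higher. Before adjustment 0 of the 6 had a p under 0.05, against 0.584% of all genes lower and 2.25% higher. Relative to WT, mean cKO levels were 67.0% to 87.9% for Nlrp5, Tle6, Padi6, Khdc3 and Nlrp2, with log2 fold changes from -0.52 for Padi6 to -0.16 for Khdc3. For Nlrp5, Padi6 and Nlrp2 each cKO library was lower than each WT library, an order found in this direction for 10.2% of all genes. Ooep pointed the other way, with both cKO libraries above both WT libraries, as in 15.8% of all genes, and a cKO mean 1.7-fold that of WT. Its log2 fold change was 0.74 (SE 0.38, unadjusted p = 0.0969, adjusted p = 1.0 from limma). The median over the 6 genes was -0.24, compared with 0.00 over all genes. The direction of the Tle6 and Khdc3 values rested on WT zygote replicate 1, without which they were 0.026 and 0.18 on the log2 scale, and that of Khdc3 also on cKO zygote replicate 2, without which it was 0.11.

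At the 2-cell stage the mean level of each member but Ooep was lower in cKO than in WT embryos, and for Nlrp5, Nlrp2 and Padi6 the difference passed the test. Mean cKO levels were 40.6% of WT for Nlrp5, 42.0% for Nlrp2, 44.3% for Tle6, 53.4% for Padi6 and 54.7% for Khdc3, and for these 5 each cKO library was lower than each WT library, an order found in this direction for 43.4% of all genes. limma called 3 of the 6 lower, against 24.6% of all genes, and none higher, against 6.16%. These were Nlrp5 at -1.31 (SE 0.26, adjusted p = 0.014), Nlrp2 at -1.13 (SE 0.27, adjusted p = 0.0241) and Padi6 at -0.91 (SE 0.26, adjusted p = 0.04). Tle6 missed the threshold at -1.15 (SE 0.35, adjusted p = 0.0534), as did Khdc3 at -0.75 (SE 0.39, adjusted p = 0.204). Ooep was at 0.29 (SE 0.38, adjusted p = 0.589), with 1 cKO library below and the other above the WT libraries, and without cKO 2-cell replicate 2 it was -0.22. None of the 6 differed by more than 3-fold between the means, against 13.5% of all genes lower, and 3 of the 6 (Nlrp5, Nlrp2 and Tle6) were lower by more than 2-fold, against 28.6%. The median log2 fold change over the 6 genes was -1.02, compared with -0.30 over all genes.

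Those 3 calls depended on how the spread and the scale were set. With a weight for each group, which gives the cKO 2-cell libraries the lowest, 854 of all genes were called lower in place of 3538, and 0 of the 6 passed. After median-ratio scaling only Nlrp2 passed (adjusted p = 0.0461 from limma). A fit of the 4 2-cell libraries alone called 0 of the 14392 genes in either direction, so it says nothing on the members. Quantile normalization ended the Nlrp2 call instead (log2 fold change -0.53, adjusted p = 0.162 from limma), and without genes of a mean FPKM under 5 Tle6 passed beside the 3 (adjusted p = 0.0358 from limma). Leaving out either WT 2-cell library left 0 calls (adjusted p for Nlrp5 = 0.071 and 0.0663), and leaving out either cKO zygote library left Nlrp5 alone. Without cKO 2-cell replicate 2 the Padi6 call was lost (adjusted p = 0.0884), and without either WT zygote library those of Padi6 and Nlrp2 were lost while Tle6 passed (adjusted p = 0.0246 and 0.0247 from limma). As deposited, limma called 3538 genes lower and 887 higher at this stage, and after median-ratio scaling 1747 lower and 1437 higher. That scaling moved the median of all genes by 0.30 on the log2 scale, from -0.30 to 0.00. Relative to the median of all genes, the median of the 6 transcripts was -0.73 in the deposited values, -0.56 with median-ratio scaling and -0.71 with quantile normalization. On that scale Nlrp5 was at -1.01 and Ooep at 0.59 as deposited, and under neither scaling did a member change sides.

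**Figure D3:**
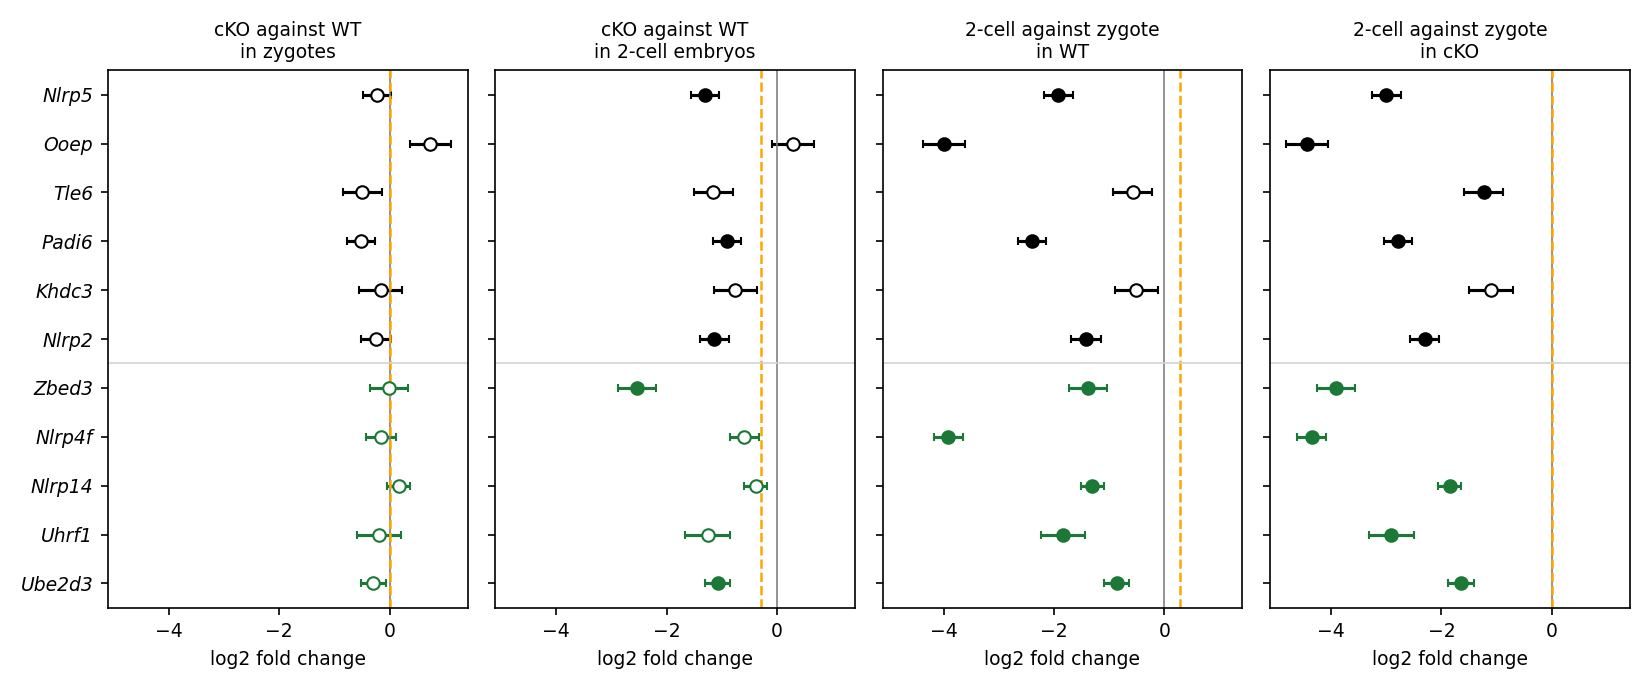
Log2 fold changes on the log2(FPKM + 1) scale of the 6 members (black) and 5 associated proteins (green) in the comparisons of genotype within each stage and of stage within each genotype; bars are standard errors from limma, filled points have an adjusted p under 0.05, and the orange dashed line is the median of all genes. No member is filled in zygotes, Nlrp5, Padi6 and Nlrp2 are filled and below the line in 2-cell embryos, and Ooep has the lowest value among the members in both comparisons of stage.

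Whether genotype acted differently on these transcripts at the 2 stages was tested as an interaction in the same limma model. None of the 6 passed, against 10.2% of all genes with a more negative and 1.58% with a more positive difference at the 2-cell stage. All 6 differences were negative, and before adjustment Nlrp5 alone had a p under 0.05, against 25.5% of all genes. They ran from -1.08 for Nlrp5 (SE 0.37, unadjusted p = 0.0255, adjusted p = 0.109 from limma) to -0.39 for Padi6 (SE 0.36, adjusted p = 0.508 from limma). Nlrp2 was at -0.88 (SE 0.38, adjusted p = 0.179 from limma) and Tle6 at -0.66 (SE 0.50, adjusted p = 0.438 from limma). The median was -0.62, compared with -0.34 over all genes. Leaving out cKO 2-cell replicate 1 brought Nlrp2 past the threshold (adjusted p = 0.0203 from limma), and leaving out replicate 2 brought Nlrp5 past it (adjusted p = 0.0156 from limma). Over all genes 1474 were lower and 227 higher by this test, and 657 lower and 449 higher after median-ratio scaling, which moved the median of all genes by 0.31. With that scaling the differences of Ooep and Padi6 were 0.049 and 0.11, and with quantile normalization that of Khdc3 was 0.039. A call at the 2-cell stage and none in zygotes is by itself no difference between the stages.

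Proteins bound to the complex or to the cytoplasmic lattices were taken from a list of 5 (Zbed3, Nlrp4f, Nlrp14, Uhrf1 and Ube2d3), all present in the table. Zbed3, a zinc-finger protein of the complex that takes part in placing the cleavage spindle, was the most abundant. It was at 3542 and 3887 FPKM in WT zygotes, 3756 and 3592 in cKO zygotes, 1307 and 1544 in WT 2-cell embryos and 335 and 179 in cKO 2-cell embryos. The zygote groups overlapped, and the cKO 2-cell libraries were far below those of WT, with a cKO mean at 18.0% of the WT mean. The log2 fold change of Zbed3 at the 2-cell stage was -2.53 (SE 0.34, adjusted p = 0.00474 from limma), with a larger size than that of any of the 6 members, a difference that was not tested. Ube2d3, a ubiquitin-conjugating enzyme, was at 831 and 729 FPKM in WT and 339.9 and 399.6 in cKO 2-cell embryos (log2 fold change -1.08, SE 0.23, adjusted p = 0.0171 from limma). Over the list 2 of 5 were lower, against 24.6% of all genes, and the median was -1.08, compared with -0.30 over all genes. The others were at -1.26 for Uhrf1 (adjusted p = 0.0601), -0.59 for Nlrp4f (adjusted p = 0.146) and -0.38 for Nlrp14 (adjusted p = 0.219, all from limma). Uhrf1, which guides maintenance of DNA methylation, was at 41.2 and 43.4 FPKM in WT and 27.4 and 10.6 in cKO 2-cell embryos. Nlrp4f and Nlrp14 are oocyte relatives of Nlrp5. Nlrp4f was at 80.4 and 71.0 FPKM in WT and 39.5 and 62.9 in cKO 2-cell embryos, and Nlrp14 at 183 and 153.5 in WT and 119 and 138 in cKO 2-cell embryos. The genotypes did not overlap for any of the 5, an order found in this direction for 43.4% of all genes. The cKO replicates of Uhrf1 and Nlrp4f were further apart than those of WT. In zygotes 0 of 5 passed, against 0.0% of all genes lower and 0.0208% higher, with log2 fold changes from -0.29 to 0.17. Between the stages all 5 passed as lower in both genotypes, against 15.5% of all genes in WT and 27.1% in cKO embryos, with Nlrp4f at 6.55% of its zygote mean in WT and 4.93% in cKO embryos and Ube2d3 at 55.1% and 31.9%. Between the genotypes at the 2-cell stage, the Ube2d3 call was lost after median-ratio scaling, with group weights and without WT 2-cell replicate 1 (adjusted p = 0.0673), Uhrf1 passed without genes of a mean FPKM under 5 (adjusted p = 0.0374) and without either cKO 2-cell library (adjusted p = 0.00156 and 0.0227), Nlrp4f passed without cKO 2-cell replicate 2 (adjusted p = 0.0179), and the Zbed3 call was kept in every fit that called any gene (highest adjusted p = 0.0381, all from limma). Between the stages in WT, leaving out any of the 4 WT libraries ended the calls of Zbed3 and Uhrf1 (adjusted p = 0.0524 to 0.114 from limma), and any but WT 2-cell replicate 1 that of Ube2d3. Quantile normalization moved the WT stage change of Zbed3 from -1.38 to -0.59 (adjusted p = 0.3 from limma) and that of Ube2d3 to -0.47 (adjusted p = 0.104 from limma), which ended both calls.

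Relatives of the members in sequence were described from lists of the families. Of 11 oocyte NLRP genes 9 were in the table, and all 9 were called lower at the 2-cell stage than in zygotes in both genotypes, against 15.5% of all genes in WT and 27.1% in cKO embryos. In cKO against WT 2-cell embryos 5 of the 9 were lower (Nlrp4a, Nlrp4b, Nlrp4e, Nlrp9a and Nlrp9b, named because they passed) and 0 were higher, against 24.6% and 6.16% of all genes. The cKO libraries of all 9 lay below those of WT, as for 43.4% of all genes, with a median log2 fold change of -0.78, compared with -0.30 over all genes. Nlrp4a was at 33.3 and 32.0 FPKM in WT and 17.2 and 11.9 in cKO 2-cell embryos. Nlrp9a was at 46.4 and 47.1 FPKM in WT and 13.3 and 24.8 in cKO 2-cell embryos. Nlrp9c, at 97.0 and 91.1 FPKM in WT and 26.8 and 60.8 in cKO 2-cell embryos, did not pass (log2 fold change -1.20, SE 0.37, adjusted p = 0.0551 from limma). For both, the cKO replicates were further apart than the WT replicates. Nlrp4b was at 20.2 and 18.5 FPKM in WT and 5.47 and 11.9 in cKO 2-cell embryos. Nlrp4e was at 35.0 and 26.6 FPKM in WT and 15.7 and 19.2 in cKO 2-cell embryos, and Nlrp9b at 13.2 and 14.8 in WT and 6.92 and 9.31 in cKO 2-cell embryos. After median-ratio scaling or quantile normalization, and without WT 2-cell replicate 1, 0 of the 9 passed as lower. In zygotes 0 of the 9 passed, against 0.0% of all genes lower and 0.0208% higher, with a median of -0.06. The NLRP genes are a multigene family, so reads of near-identical copies may have been split between them.

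Of the 4 Tle genes in the table (Tle1, Tle3, Tle4 and Tle5), which encode Groucho co-repressors and a short relative, 3 were higher in WT 2-cell embryos than in WT zygotes, against 34.2% of all genes, and 0 were lower. Over 14 alternatives this count ran from 0 to 3, with 0 after quantile normalization and without WT 2-cell replicate 1 or either WT zygote library. In cKO embryos limma called only Tle3 higher, a count given without the share of all genes and not read as a difference from WT. Tle3 was at the floor in all zygote libraries, where values set to 1 have no spread. Its p-value is therefore not read as a test, and without Tle3 0 of the other genes passed. Tle4 was at 6.70 and 6.28 FPKM in WT zygotes and at 16.3 and 13.8 in WT 2-cell embryos. Tle1 was near the floor in WT zygotes, at 1.43 and 1.21 FPKM, and at 6.65 and 7.25 in WT 2-cell embryos. Tle5 was at 4.015 and 2.98 FPKM in WT zygotes and at 22.9 and 7.93 in WT 2-cell embryos, where the replicates lay far apart. None of the 4 passed between the genotypes at either stage. Of all genes, 24.6% were lower and 6.16% higher in cKO at the 2-cell stage, and 0.0% and 0.0208% in zygotes. Padi2 and Padi4, the relatives of Padi6 in the table, were between 1.0 and 3.21 FPKM in zygotes and between 2.19 and 16.4 in 2-cell embryos. In no comparison did either of the 2 pass. Of all genes, 34.2% were higher at the 2-cell stage in WT and 6.16% higher in cKO than in WT 2-cell embryos. Over the alternatives, 0 to 2 of them were higher at the 2-cell stage in either genotype, and 1 was higher in cKO than in WT 2-cell embryos without cKO 2-cell replicate 1. Among the KH-domain relatives of Ooep and Khdc3, Khdc1b was at 1044 and 1280 FPKM in WT and 178 and 319 in cKO 2-cell embryos (log2 fold change -2.27, SE 0.32, adjusted p = 0.00531 from limma). Dppa5a, a KH-domain protein of early embryos and embryonic stem cells, was at 617 and 420.4 FPKM in WT and 838 and 2018 in cKO 2-cell embryos (log2 fold change 1.35, SE 0.48, adjusted p = 0.0824 from limma). Khdc1a was at 122 and 62.2 FPKM in WT and 22.3 and 52.1 in cKO 2-cell embryos (log2 fold change -1.33, SE 0.47, adjusted p = 0.08 from limma). Khdc1c was at 7.88 and 6.97 FPKM in WT and 4.94 and 8.32 in cKO 2-cell embryos, with overlapping genotypes. In the 4 genes of this list 1 was lower and 0 were higher between the genotypes at the 2-cell stage, a share close to the 24.6% of all genes that were lower. None passed in zygotes, against 0.0% of all genes lower and 0.0208% higher.

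Oocyte transcription factors, which drive genes of the growing oocyte, were also listed. In cKO against WT 2-cell embryos limma called 3 of 6 lower (Nobox, Sohlh1 and Lhx8), or 2 without Sohlh1, against 24.6% of all genes. It called 0 higher, against 6.16%. The median log2 fold change was -0.75 with Sohlh1. Without it the median was -0.32, the value of Figla, beside the -0.30 of all genes. In zygotes 0 of 6 passed, against 0.0% of all genes lower and 0.0208% higher. Nobox was at 124 and 91.1 FPKM in WT zygotes, 119 and 79.9 in cKO zygotes, 16.3 and 14.8 in WT 2-cell embryos and 5.81 and 6.88 in cKO 2-cell embryos. Lhx8 was at 16.0 and 20.3 FPKM in WT and at 5.6 and 2.24 in cKO 2-cell embryos. Taf4b, a subunit of the general factor TFIID, moved the other way between the stages, from 7.47 and 10.0 FPKM in WT zygotes to 32.3 and 32.4 in WT 2-cell embryos. Figla was at or near the floor in every group, from 1.0 to 5.35 FPKM. Sohlh1 was at the floor in every library except those of WT 2-cell embryos, where it was at 5.94 and 6.73 FPKM. It thus entered the table only through the group in which it was high, and since values set to 1 have no spread, its p-value is not read as a test.

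The genes whose pattern was most like the mean pattern of the 6 members were sought among the 5850 other genes whose FPKM averaged 10 or more, by the root mean square difference of centred log2(FPKM + 1) values over the 8 libraries. The nearest 10 were Cmas, U2af1l4, Hadha, Maea, Ccdc69, Tmem60, Adk, Hsf5, Ndufab1 and Trim60, with differences from 0.133 to 0.178. Cmas, the nearest, was at 51.1 and 44.6 FPKM in WT zygotes, 47.7 and 40.5 in cKO zygotes, 15.7 and 15.9 in WT 2-cell embryos and 6.31 and 8.09 in cKO 2-cell embryos. For each of the 10, which were chosen for this pattern, every zygote library was above the WT 2-cell libraries, and these were above the cKO 2-cell libraries. The cKO zygotes of Ccdc69, Hsf5 and Trim60 lay below the WT zygotes. Among the members themselves, Nlrp2 was closest to the mean pattern, at 0.267, and Ooep farthest from it, at 1.19. Tle6 and Khdc3 were the most alike pair, at 0.293, and Ooep and Khdc3 the least, at 1.83.

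For single members the nearest 2 genes differed. Nlrp9a and Pex13 were nearest to Nlrp5, at 0.094 and 0.108, and Nlrp9a is a member of the same family. Oas1h and 1300002E11Rik were nearest to Ooep, at 0.264 and 0.292, a larger distance than for any other member. Oas1h was at 392 and 324 FPKM in WT zygotes, 422 and 345 in cKO zygotes, 22.6 and 15.8 in WT 2-cell embryos and 18.4 and 32.6 in cKO 2-cell embryos. It shared with Ooep the steep fall and the higher value in cKO 2-cell replicate 2. Gpn2 and Adprh were nearest to Tle6, Sdha and Nhej1 to Padi6, and Kctd10 and Dnajc9 to Khdc3, with differences from 0.157 to 0.2. Trim60 was among the nearest to Nlrp2, at 0.152. The measure describes these 8 libraries, which fall into 4 groups, and it carries no test.

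**Figure D4:**
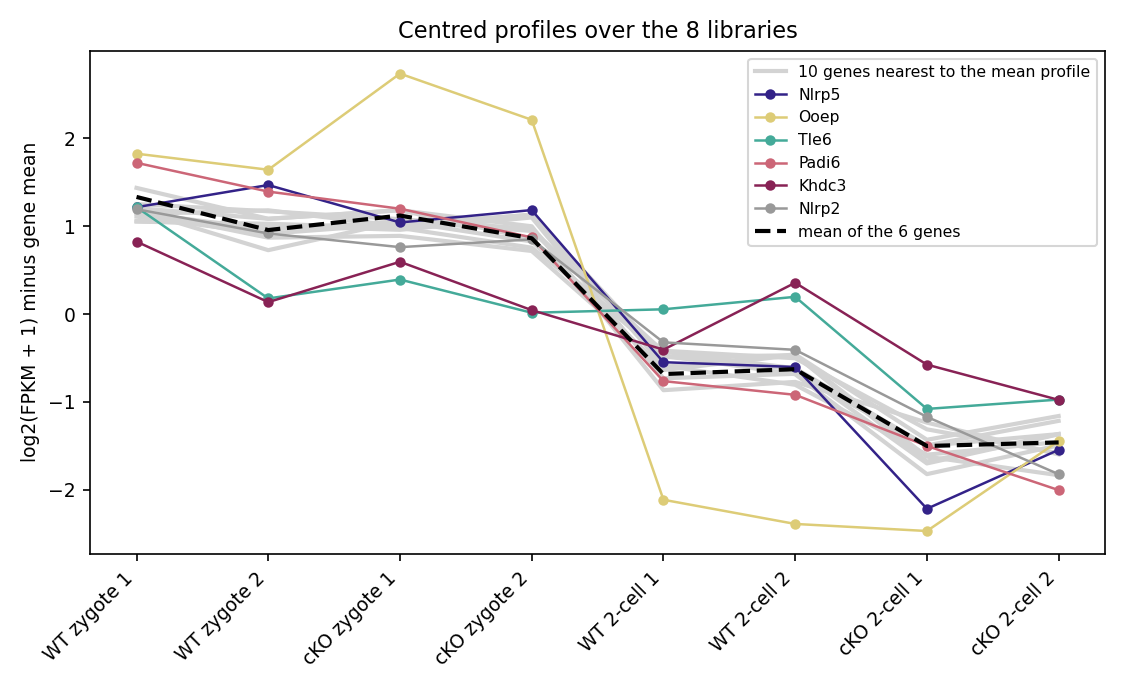
Centred log2(FPKM + 1) values of the 6 members (colours), their mean (black dashed) and the 10 nearest other genes (grey) over the 8 libraries; the vertical axis is the difference from each gene's own mean on the log2 scale. Ooep lies above the other members in the zygotes and below them in the WT 2-cell libraries, Tle6 and Khdc3 vary least between the stages, and the grey lines follow the mean.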

How the data were processed

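The data comprised 8 RNA-seq libraries grouped by the sample labels, 2 for WT and 2 for cKO at each of the zygote and 2-cell stages. According to the study's methods and the submitters' processing notes, reads were trimmed, mapped to mouse mm9 with TopHat2 2.1.1 and quantified with Cufflinks 2.2.1. The authors deposited FPKM per gene, with values under 1 set to 1 and genes under 1 in all samples removed. The gene annotation and any further normalization are not given in the sources used here. FPKM carries no counts, so depth is unknown and precision rests on 2 libraries per group. The 7 ChIP-seq samples for H2AK119ub1 were left out.

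Values on the log2(FPKM + 1) scale for all 14392 genes were fitted with limma 3.58.1 under R 4.3.3, with 4 groups in 1 model, a trend in the prior and Benjamini-Hochberg adjustment at 0.05. This scale understates the change of genes with low values. The fit leaves 4 residual degrees of freedom and shares 1 spread between the groups, although the cKO 2-cell replicates were further apart. The fold rule, more than 3-fold between group means, has no test. Python 3.11.15 with pandas 2.3.3, numpy 2.4.6 and matplotlib 3.10.9 served for the other steps.

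The members, the gene lists and the tests were chosen with earlier results of these data known. Named in the text are all members, Usp16, all listed proteins bound to the complex, the pattern neighbours and, in each other list, the 4 genes with the highest mean FPKM, besides genes named because they passed a test. A pattern neighbour of Nlrp2 is not reported here. Coordinates are from GENCODE M1 on mm9, and upstream sequences from RefSeq on GRCm38.p6. The groups share replicate numbers, but no pairing of embryos is described. The deviations of same-numbered libraries from their group means correlated at 0.497 between WT and cKO zygotes, at -0.239 between WT and cKO 2-cell embryos and at -0.047 to 0.11 between the stages. The numbers were not a block in the main fit. The replicate block among the alternatives spanned both stages. No block was fitted for the zygotes alone, where the correlation was highest, so a pairing within the zygotes was not tested. Alternatives covered the pseudocount, a filter on low values, the scaling, a replicate block, group weights, the libraries in the fit and leaving out each library. The crossed replicate numbers and the count over 5 members by exact symbol were added after seeing the data.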

Additional observations from a re-analysis of the deposited data

Results flagged for a closer look

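No member of the complex met a rule for a closer look. The genes that did came from the other lists, all of whose genes were examined. In each case the log2 fold change of cKO against WT was compared between 2-cell embryos and zygotes by the interaction test of limma, under the main setting and up to 15 alternatives. Of all genes, 10.2% passed this test with a more negative and 1.58% with a more positive difference at the 2-cell stage. A pass is therefore not particular to the genes named here. For Zbed3 the change at the 2-cell stage was more negative, by -2.52 (adjusted p = 0.0298), and it passed in 7 of the alternatives, but not after median-ratio scaling (adjusted p = 0.0632). For Khdc1b the difference was -2.22 (adjusted p = 0.034), which also passed in 7 of them. For Bcl2l10, an apoptosis regulator of oocytes, it was -1.89 (adjusted p = 0.0478), which passed in 5. For Bmp15, a growth factor secreted by oocytes, it was -3.0 (adjusted p = 0.0064), which passed in 11 and not without any of the 4 zygote libraries (adjusted p = 0.0536 to 0.0626). For Usp16 it was 2.65, in the positive direction (adjusted p = 0.0251), which passed in 8. The calls of Zbed3, Khdc1b, Bcl2l10 and Usp16 were each lost without any of the 4 zygote or the 2 WT 2-cell libraries, and the highest adjusted p over the alternatives was 0.144, 0.158, 0.249 and 0.126 in that order.

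For Sohlh1, an oocyte transcription factor at the floor in all but the WT 2-cell libraries, the difference was -1.87, and since values set to 1 have no spread its p-value is not read as a test. For Cdh1, the adhesion protein E-cadherin, it was -2.45 (adjusted p = 0.0367), which passed in 5. For Dnmt3l, a cofactor of DNA methylation in oocytes, it was -1.64 (adjusted p = 0.0442), which passed in 4. Among the 2-cell markers it was -2.02 for Zfp352 (adjusted p = 0.0457), which passed in 3 and had 1 zygote library at the floor. It was -2.38 for Zscan4c, which was at the floor in 3 of the 4 zygote libraries and has the same limit as Sohlh1. For the sperm gene Tnp1, at the floor in all zygote libraries and at 4.28 and 5.69 FPKM in WT 2-cell embryos, it was -1.29, again with that limit.

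Further genes are given because their cKO libraries lay on opposite sides of the WT libraries at the 2 stages, below in zygotes and above in 2-cell embryos for Dppa5a and the reverse for Btg4, Nlrp4c, Pms2, Actb and Zscan4d. Their interaction did not pass, with 1.85 for Dppa5a (adjusted p = 0.129 from limma), -2.57 for Btg4 (adjusted p = 0.0501 from limma), -0.71 for Nlrp4c (adjusted p = 0.183 from limma), -1.07 for Pms2 (adjusted p = 0.0547 from limma), -1.03 for Actb (adjusted p = 0.293 from limma) and -2.28 for Zscan4d (adjusted p = 0.0886 from limma). Btg4 passed in 5 of the alternatives (lowest adjusted p = 0.0101), Pms2 in 4, Zscan4d in 2, and Dppa5a (adjusted p = 0.0338), Nlrp4c and Actb in 1 each, without cKO 2-cell replicate 1. The share of all genes whose libraries lay on opposite sides in this way was not counted. With 2 libraries per group no group was large enough to be searched for a single deviating library.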

How the results depend on the processing

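For the fall between stages in WT, 88 of 90 values of the members under the alternatives kept their direction and their side of the threshold and the other 2 newly passed, and in cKO embryos 80 of 90 did. For the genotypes at the 2-cell stage it was 62 of 90. There the 3 members called lower became 0 with group weights (854 of all genes in place of 3538), 1 after median-ratio scaling and 0 to 3 with 1 library left out. With the 4 libraries compared alone 0 members and 0 of the 14392 genes passed, so that fit says nothing on the members, although its values are among the 90. Quantile normalization gave 2 and a mean FPKM of at least 5 gave 4. The count of all genes called lower also moved. It was 1464 with quantile normalization, 2280 with that filter and 1747 after median-ratio scaling. The interaction gave 0 to 1 members with 1 library left out. By the fold rule, the 0 members lower in cKO 2-cell embryos at 3-fold became 0 to 1 with 1 library left out, and 3 at a 2-fold threshold. Apart from the construction of the fits with fewer libraries, the cause was not tested.

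Over the other 15 alternatives the counts lower in cKO than in WT 2-cell embryos ran from 1 to 4 for the associated proteins, 0 to 8 for the oocyte NLRP genes (3 with a replicate block), 0 to 3 for the Tle genes, 1 to 2 for the KH-domain relatives, 1 to 3 for the oocyte transcription factors, 1 to 11 for other maternal-effect genes, 1 to 5 for oocyte products and 1 to 4 for the 2-cell markers. The number of all genes called lower also moved between such settings, as given above. These ranges are therefore not read as results about the lists.

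Some signs were reversed. With 1 library left out, the zygote values ran from -1.01 to 0.026 for Tle6, from -0.51 to 0.18 for Khdc3 and from -0.082 to 0.052 for Zbed3, and the 2-cell value of Ooep from -0.22 to 0.81. Nlrp14 was at 0.094 at the 2-cell stage after median-ratio scaling. In the interaction, median-ratio scaling gave 0.049 for Ooep, 0.11 for Padi6 and 0.064 for Nlrp4f, quantile normalization gave 0.039 for Khdc3, and Ooep ran from -0.96 to 0.067 with 1 library left out.

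Without the 100 genes of highest mean FPKM in the sum, the 6 transcripts made up 0.393% (WT zygotes), 0.441% (cKO zygotes), 0.0671% (WT 2-cell) and 0.0331% (cKO 2-cell). With the 5 members found by exact symbol it was 0.0496% in WT 2-cell embryos. With 1 library left out the shares were 0.252% to 0.28%, 0.26% to 0.335%, 0.051% to 0.0527% and 0.0239% to 0.0269% in the same order of groups.

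Adding a replicate block to the model, the members called stayed at 0 lower in zygotes, 3 in 2-cell embryos, 4 between the stages in WT and 5 in cKO, and 0 in the interaction, and the calls at the 2-cell stage were kept for Nlrp5 (adjusted p = 0.0176), Padi6 (adjusted p = 0.0251) and Nlrp2 (adjusted p = 0.0291, all from limma). Among the associated proteins it ended the interaction call of Zbed3 (adjusted p = 0.054 from limma). In the other lists the block ended those of Khdc1b (adjusted p = 0.0523) and Bcl2l10 (adjusted p = 0.0664, both from limma). It also ended those of Cdh1 (adjusted p = 0.0519) and Zfp352 (adjusted p = 0.0722, both from limma). Those of Bmp15 (adjusted p = 0.0229), Usp16 (adjusted p = 0.0468) and Dnmt3l (adjusted p = 0.0379, all from limma) were kept. Under the crossed pairing of the 2-cell libraries 3 members were also lower. Depth is unknown, so differences of the transcripts near the floor, Khdc3 and Nlrp2 in cKO 2-cell embryos, cannot be set against counting error.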

Other observations

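Among other maternal-effect genes, 7 of 15 were lower and 1 was higher in cKO than in WT 2-cell embryos by limma, against 24.6% and 6.16% of all genes. In zygotes 0 of 15 passed, against 0.0% of all genes lower and 0.0208% higher. The median log2 fold change at the 2-cell stage was -0.41, compared with -0.30 over all genes. The higher gene was Dppa3, which protects the maternal genome from demethylation, at 2958 and 2472 FPKM in WT and 5888 and 8774 in cKO 2-cell embryos (log2 fold change 1.41, SE 0.34, adjusted p = 0.0242 from limma). The Dppa3 call was not kept under every alternative setting, while under another more genes of this list passed as higher. Npm2, a histone chaperone of the oocyte, was at 134 and 124 FPKM in WT and 77.7 and 78.4 in cKO 2-cell embryos. Btg4, an adaptor of the deadenylase that clears maternal RNA, was at 2058 and 1457 FPKM in WT and 208 and 482 in cKO 2-cell embryos (log2 fold change -2.45, SE 0.44, adjusted p = 0.0105 from limma). Zfp57, a zinc-finger protein that maintains imprints, was at 125 and 140.2 FPKM in WT and 179 and 97.0 in cKO 2-cell embryos, so that the genotypes overlapped.

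Of 10 genes for secreted, surface and other abundant oocyte products, 4 passed as lower in cKO than in WT at the 2-cell stage (Zp1, Bmp15, Oosp1 and Bcl2l10) and 0 as higher. The shares of all genes were 24.6% and 6.16%, and the median of the 10 was -0.78. In zygotes 0 of 10 passed, against 0.0% of all genes lower and 0.0208% higher. Bmp15 was at 531 and 536 FPKM in WT and 79.6 and 67.5 in cKO 2-cell embryos (log2 fold change -2.85, SE 0.20, adjusted p = 0.000936 from limma). Oosp1, a secreted oocyte protein, was at 4936 and 3711 FPKM in WT and 544 and 1876 in cKO 2-cell embryos, with the cKO replicates far apart. Bcl2l10 was at 647 and 662 FPKM in WT and 153 and 261 in cKO 2-cell embryos, and Zp1, a zona pellucida protein, at 38.0 and 55.7 in WT and 16.62 and 14.97 in cKO 2-cell embryos. H1foo, the linker histone of oocytes, was at 74.5 and 82.7 FPKM in WT and 71.3 and 126 in cKO 2-cell embryos, with overlapping genotypes. Of 7 genes that mark 2-cell embryos 4 were in the table. Zfp352 and Zscan4d were called lower in cKO than in WT 2-cell embryos, against 24.6% of all genes. Zscan4c and Zscan4f were also called lower. Their spread in the model takes in zygote libraries at the floor, so these calls are not read as tests. Zfp352 and Zscan4d were also called higher in 2-cell embryos than in zygotes in WT, against 34.2%, while the calls of Zscan4c and Zscan4f, listed at 1 in each WT zygote library, are not read as tests there. The summed FPKM of the 4 was 350.1 and 569 in WT and 134 and 132 in cKO 2-cell embryos, most of it Zfp352, and 3 of the 4 are Zscan4 copies between which reads may be split.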
